A study of Mus musculus with 28 samples.

Results

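The 7 genes Aff2, Nkx2-3, Ift80, Atg12, Iqcg, Bahcc1 and Sgms2 were followed through every expression table of the series because they combine a Ty1 ChIP-seq peak at the gene with a high RNA level in mouse MOZ-TIF2 cells. They are 7 of the 35267 genes with a symbol in the bulk RNA-seq tables. They were chosen by both of those measures, so the peaks and the MOZ-TIF2 levels are given below as a description, without a test. In the table of fresh, differentiated and MOZ-TIF2 cells 15224 genes passed the low-count filter, not all of them protein-coding. Peaks were matched to protein-coding genes only, and 3763 of the 15224 had a peak within 5 kb in both Ty1 ChIP replicates. In 766 of these 3763 genes both MOZ-TIF2 libraries lay above all other libraries, and in 35 they lay at least 4 times above, a set that includes the 7 genes.

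MOZ-TIF2 is a leukaemic fusion of the lysine acetyltransferase MOZ (Kat6a) with the nuclear receptor coactivator TIF2 (Ncoa2), whose TIF2 portion recruits the acetyltransferases CBP and p300. Such fusions give myeloid progenitors the ability to grow on replating and are known for high expression of posterior HOXA genes. A Ty1 epitope on the fusion protein lets an antibody to the tag map where it sits on chromatin. The 7 genes have no common pathway. Nkx2-3 encodes a homeodomain transcription factor, Aff2 a nuclear member of the AFF family, whose relatives scaffold transcription elongation complexes, and Bahcc1 a chromatin protein with a BAH domain that recognises a repressive histone H3 methylation mark. Ift80 encodes a subunit of the intraflagellar transport B complex of cilia, and Iqcg a calmodulin-binding protein of the nexin-dynein complex of motile cilia. Atg12 encodes a ubiquitin-like protein that is conjugated to ATG5 in autophagosome formation, and Sgms2 a sphingomyelin synthase of the plasma membrane.

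All cells derived from C57Bl/6 mouse bone marrow that was selected for c-Kit, a surface receptor of haematopoietic stem and progenitor cells. For bulk RNA-seq there were 2 libraries of fresh c-Kit+ cells, 2 of GFP+ cells that carried an empty retroviral vector and had differentiated for 4 days in cytokine medium, and 2 of GFP+ cells with Ty1.MOZ-TIF2 after 4 days in the same kind of medium. A second bulk table held HOXA9 cells and EYA1 plus HOXA9 cells, sorted for the fluorescent markers of their retroviruses and replated for 4 rounds, each given 5 µM benzarone or the solvent DMSO for 72 h (3 libraries in each of 4 groups). HOXA9 is a homeodomain protein of leukaemic self-renewal, EYA1 is a transcriptional coactivator with phosphatase activity, and benzarone is an inhibitor of EYA phosphatases. Serially replated Ty1.MOZ-TIF2 cells were used for 2 Ty1 ChIP-seq samples and for droplet single-cell RNA-seq after DMSO or 5 µM benzarone, at day 1 (both), day 3 (benzarone) and day 5 (both, in 1 sample separated by hashtags). The transgenes in every line come from retroviruses, and nothing in the labels says whether replicates were separate transductions, cultures or mice, so p-values measure the spread between these samples, which may be technical.

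Bulk libraries held 12397486 to 34463851 estimated counts in the first table and 26340517 to 34606046 in the second. Levels are CPM, counts scaled to the size of each library (TMM factors), which are comparable between samples for 1 gene but not between genes of unequal length. The libraries matched their labels where the counts could show it: Eya1 read 134 to 276 CPM in the 6 EYA1 libraries and had 0 or 1 count in the 6 HOXA9 libraries. These groups differed in Hoxa9 as well. It read 1238 to 1646 CPM in EYA1 plus HOXA9 cells with benzarone, 314 to 507 in those with DMSO and 180 to 241 in the HOXA9 libraries. The part of Hoxa9 in the differences between these groups was not tested. Summed mast cell markers (9 genes) were 58360 to 86830 CPM in differentiated cells against 251 to 268 in fresh and 35.9 to 47.3 in MOZ-TIF2 cells. Granulocyte progenitor markers (7 genes) were 9391 to 15820 CPM in MOZ-TIF2, 6750 to 9293 in fresh and 38.7 to 259 in differentiated cells. Erythroid markers were 4311 to 6050 CPM in fresh and 4.51 to 4.93 in MOZ-TIF2 cells, where 4 of 7 were at 0.

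The peaks at the 7 genes ranged in width from 450 to 13200 bp. Ty1 ChIP gave 3676 peaks in replicate 1 and 4564 in replicate 2, with median widths of 600 and 700 bp, and 89.85% and 71.95% of them overlapped a peak of the other replicate. The label of replicate 2 gives the catalogue number that the acetyl-histone samples carry as its antibody, and not that of replicate 1, although its title names Ty1. Values of replicate 2 and counts of shared peaks rest on that title. Of 21900 protein-coding genes, 18.5% had a peak shared by both replicates within 5 kb. Only 58 genes, 0.265%, had a shared peak of at least 4000 bp in replicate 1 at that distance, and Bahcc1, Nkx2-3 and Atg12 were among them. That limit lies between the replicate 1 peaks of Atg12 (4400 bp) and Ift80 (1950 bp). The genes were chosen by their peaks, so this share describes them only. The Bahcc1 peak spanned chr11:120229502-120239951 in replicate 1 (10450 bp, the sixth widest peak) and chr11:120228052-120241251 in replicate 2 (13200 bp, the seventh widest) on GRCm38. It covered the gene's start and the antisense-strand lncRNA Gm11772. A further shared peak of 4650 and 6100 bp lay 42919 and 42369 bp from the gene.

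The Nkx2-3 peak, at chr19:43607102-43617001 (9900 bp) and chr19:43606702-43617101 (10400 bp), enclosed the whole 3568 bp gene, the whole lncRNA Gm20467 and part of the lncRNA Gm34922. The bases just upstream of the starts of Nkx2-3 and Bahcc1 lay under the peaks of both replicates and are shown because these are the 2 widest peaks of the set. They come from RefSeq's GRCm38.p6 promoter table, read on the plus strand, at chr19:43612075-43612324 and chr11:120232697-120232869 (the latter ends where the annotated gene begins). Capitals mark matches on either strand to GGGCGG (the GC box), CCAAT (the NF-Y box) and GGAAG (an ETS core).
Nkx2-3: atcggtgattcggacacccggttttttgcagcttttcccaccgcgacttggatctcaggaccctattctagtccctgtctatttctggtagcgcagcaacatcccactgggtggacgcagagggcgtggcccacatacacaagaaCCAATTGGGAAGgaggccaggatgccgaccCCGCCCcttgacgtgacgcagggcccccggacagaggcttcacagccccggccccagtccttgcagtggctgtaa
Bahcc1: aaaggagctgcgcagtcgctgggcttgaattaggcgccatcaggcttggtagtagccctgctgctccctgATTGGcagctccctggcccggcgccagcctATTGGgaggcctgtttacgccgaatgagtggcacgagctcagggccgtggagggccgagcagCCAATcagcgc
In the Nkx2-3 sequence CCAATTGG reads as CCAAT on both strands and runs into GGAAG, and CCGCCC is the GC box on the minus strand. The Bahcc1 sequence holds CCAAT 3 times, with ATTGG as its minus-strand form. In 250 bp windows before 32851 RefSeq starts, CCAAT was present in 33.8%, GGGCGG in 32.7% and GGAAG in 64.1%, so a single match to any of them is not rare. The share of windows with CCAAT 3 times was not counted. TGACAG (the MEIS core, 15.9% of windows), TGTGGT (RUNX, 14.0%) and TGATTNAT (HOX-PBX, 2.82%), CACGTG (E-box, 6.02%), TGACGTCA (CRE, 1.55%), AGATAA (the site of GATA factors, 9.99%) and TATAAA (the core promoter box, 12.4%) had no match in either sequence. The 250 bp before the Nkx2-3 start were 60.0% GC with 14 CpG, against medians of 52.4% and 6 over all windows.

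At Atg12, whose gene overlaps its neighbour Ap3s1 by 31 bp on chromosome 18, the peak was 4400 and 5900 bp wide and covered the overlapping ends of both genes. At Ift80 the peak lay mainly on Smc4, which starts 58 bp away: it was chr3:69004902-69006851 in replicate 1, 222 bp outside Ift80, and chr3:69003902-69008401 in replicate 2, with 779 of its 4500 bp inside the gene. The Sgms2 peak, chr3:131489852-131490851 and chr3:131489652-131491201, covered 2 and 3 of the 6 annotated Sgms2 starts, and the window before 1 of them had 36 CpG, more than 97.4% of windows. The narrowest peaks were those of Aff2 (chrX:69360352-69360801, 450 bp, beginning 21 bp after the annotated start, and chrX:69360452-69360951, 500 bp) and Iqcg (chr16:33056452-33057051, 600 bp, and chr16:33056802-33057601, 800 bp, both also over the ribosomal protein gene Rpl35a). The nearest peak just beyond the 5 kb limit was a 350 bp peak of replicate 2 alone, 6819 bp from Bahcc1.

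**Figure D1:**
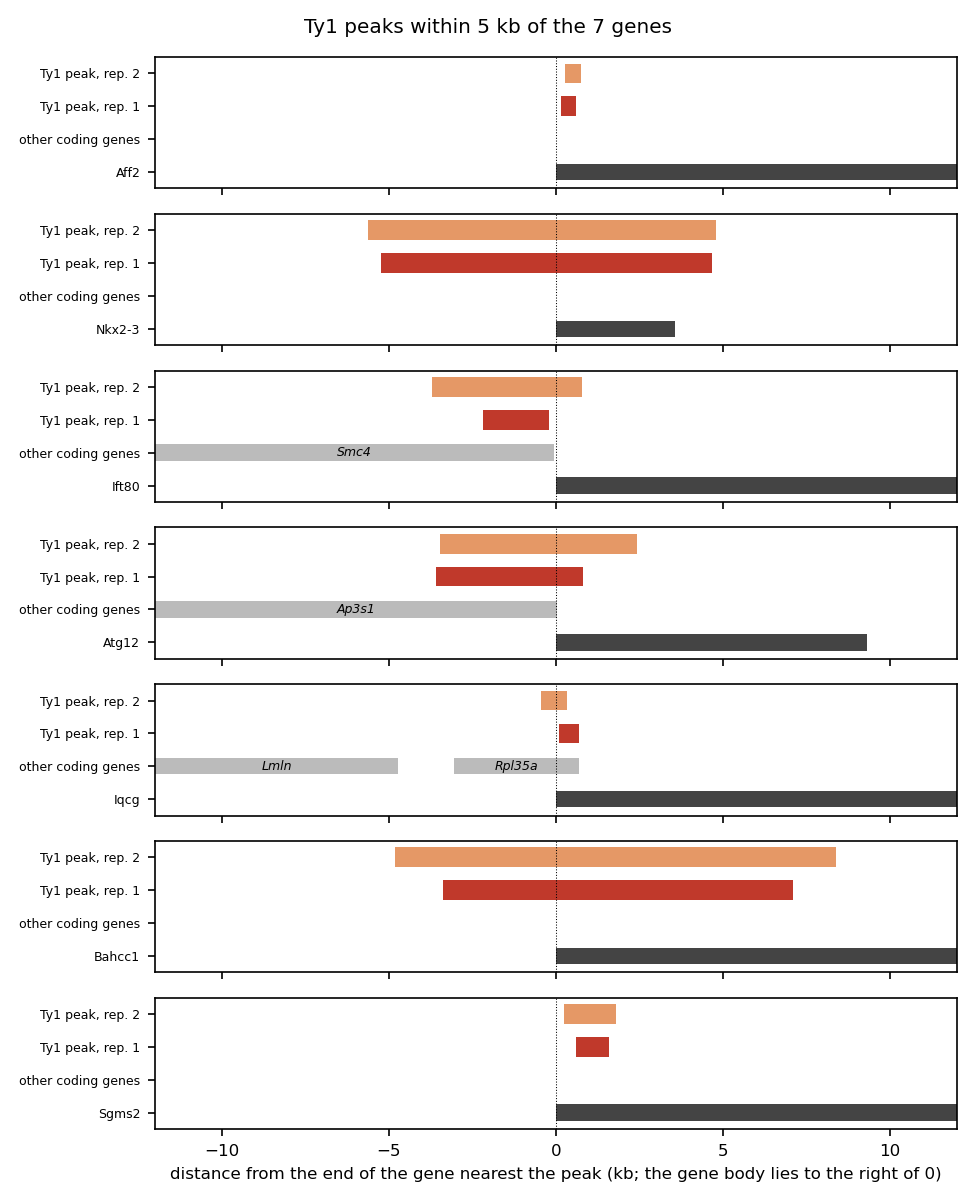
Ty1 ChIP-seq peaks of both replicates near each gene, as distance in kb from the gene's end nearest the peak, with the gene (dark) and other coding genes (grey) drawn to the same scale. The Bahcc1 and Nkx2-3 peaks spanned 9900 to 13200 bp, and those of Aff2 and Iqcg 450 to 800 bp.

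In MOZ-TIF2 cells all 7 genes lay above every fresh and differentiated library, as did 15.5% of all genes tested, and all 7 lay at least 4 times above, as did 1.48% of genes. Since this contrast chose the genes, these counts describe them only. Nkx2-3 read 37.5 and 28.8 CPM in the MOZ-TIF2 libraries, 1.25 and 0.698 in fresh cells and 0.191 and 0.0691 in differentiated cells. Aff2 read 60.5 and 25.6 CPM in MOZ-TIF2, 0.664 and 0.233 in fresh cells, and 0 and 0.380 in differentiated cells, where replicate 1 had no count. For comparison, 3 counts over a group correspond to 0.0602 (differentiated) and 0.0976 CPM (fresh). In bulk RNA, fewer cells of a type and less RNA per cell cannot be told apart, and the part of the marker differences above in any of these levels was not tested.

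The chromatin gene Bahcc1 read 340 and 90.6 CPM in MOZ-TIF2, 15.5 and 11.5 in fresh and 21.8 and 13.4 in differentiated cells. Its lower MOZ-TIF2 library was 4.16 times the highest other library, the narrowest gap of the 7, and without MOZ-TIF2 replicate 2 the gap was 15.6 times. Aff2 had the widest gap, 38.5 times (91.4 without MOZ-TIF2 replicate 2 and 64.4 without fresh replicate 1). Atg12 read 1174 and 633 CPM in MOZ-TIF2, 49.1 and 55.1 in fresh and 67.3 and 71.6 in differentiated cells, and was the only gene of the 7 besides Bahcc1 with a higher mean in differentiated than in fresh cells.

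The cilia genes Ift80 and Iqcg differed in how low they were elsewhere. Ift80 read 323 and 206 CPM in MOZ-TIF2, 16.2 and 22.0 in fresh and 13.2 and 15.9 in differentiated cells. Iqcg read 8.74 and 17.3 CPM in MOZ-TIF2, 1.03 and 1.05 in fresh and 0.191 and 0.242 in differentiated cells. Sgms2 read 283 and 413 CPM in MOZ-TIF2, 19.6 and 36.7 in fresh and 7.41 and 18.8 in differentiated cells. The groups of Sgms2 did not overlap in any pairing, although its differentiated libraries differed from each other more than those of Ift80.

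On the log2 scale the fitted differences of MOZ-TIF2 cells from fresh cells ran from 3.62 (Sgms2) to 6.61 (Aff2), and from differentiated cells from 3.62 (Bahcc1) to 8.01 (Nkx2-3). Without MOZ-TIF2 replicate 1 the Bahcc1 differences were 2.75 from fresh and 2.37 from differentiated cells. Without differentiated replicate 2 the Aff2 difference from differentiated cells was 13.04, a value against a lone library with 0 counts, which depends on the prior count and is no bound. The MOZ-TIF2 replicates were uneven for several genes. Replicate 1 exceeded replicate 2 by 1.90 log2 units for Bahcc1, a larger gap than in 96.4% of genes, by 1.23 for Aff2 and by 0.89 for Atg12. For Iqcg the difference was -0.94 and for Sgms2 -0.54, the other way round, against a median absolute difference of 0.34 over all genes. Neither replicate was the higher for all 7 genes.

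**Figure D2:**
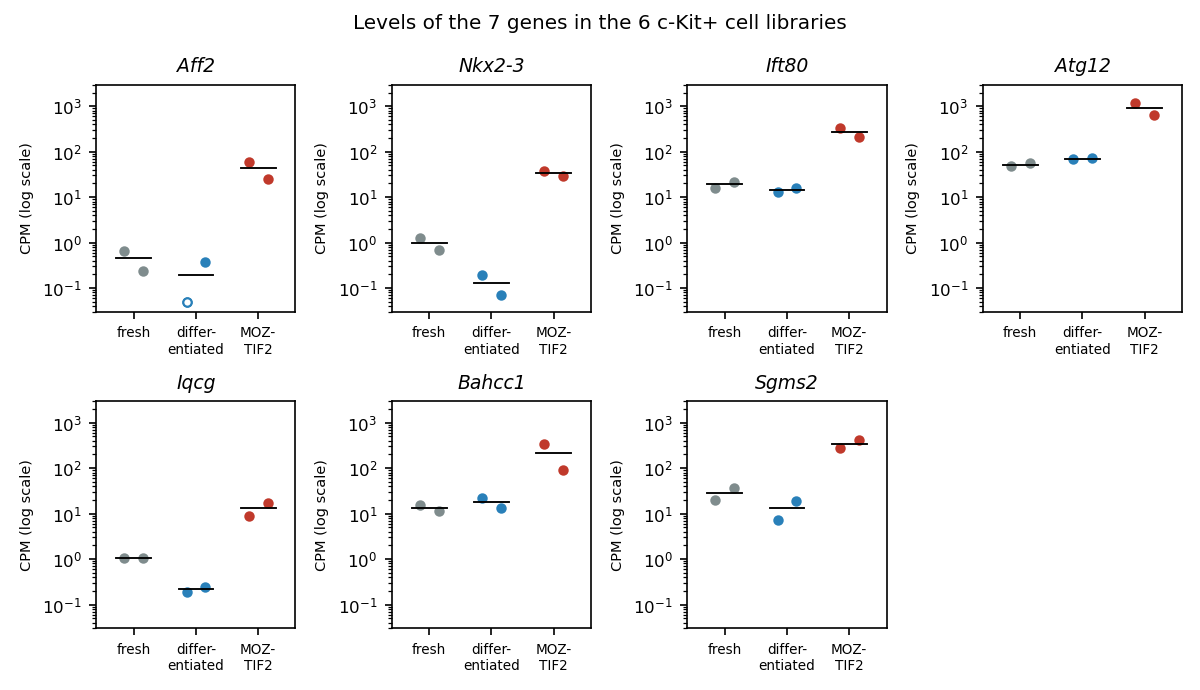
Level of each gene (CPM, log axis) in every fresh, differentiated and MOZ-TIF2 library, with 1 point per library and a line at each group's mean; the open circle at 0.05 is the library with no Aff2 count. The 2 MOZ-TIF2 points lie above the 4 others for each of the 7 genes, by 4.16 times for Bahcc1 and 38.5 times for Aff2.

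Genes next to the 7 were not uniformly high in MOZ-TIF2 cells. Smc4, a condensin subunit gene that shares the Ift80 peak, had a mean of 1155 CPM and differed from fresh and differentiated cells by 2.08 and 3.15 log2 units. Ap3s1, an adaptor complex subunit gene under the Atg12 peak, differed by 1.83 and 3.11 units. Cdo1, the cysteine dioxygenase gene 3915 bp from Atg12, differed by 5.64 and 5.78 units from a low level (mean 6.77 CPM in MOZ-TIF2 cells). In contrast, Rpl35a, which lies under the Iqcg peak, differed by -0.60 and 0.12 units, and Trim59 near Ift80 by -0.61 and 0.36. Several of these pairs also share transcribed bases: Gm11772 lies on the other strand inside Bahcc1 (2853 bp), Iqcg overlaps Lrch3 by 1760 bp and Rpl35a by 693 bp, and Sgms2 overlaps the lncRNA Gm36753 by 928 bp. The bulk libraries were strand-specific, per the labels' protocols, but whether the counting used the strand is not given in the sources used here, so reads from such stretches may be split between the genes. Which of 2 genes under a shared peak the binding belongs to was not tested.

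Between differentiated and fresh cells, neither of which carries MOZ-TIF2, Nkx2-3 and Iqcg fell. This comparison shares its libraries with those that chose the genes. The log2 difference was -2.92 (SE 0.60) for Nkx2-3, with an adjusted p of 0.0131 in edgeR's quasi-likelihood test, and -2.23 (SE 0.56, adjusted p 0.0242) for Iqcg. These were 2 of the 7 genes, of which Aff2 is not read, where 19.7% of all genes tested fell. Counts behind these values were small, 6 against 29 reads for Nkx2-3 and 11 against 32 for Iqcg over 2 libraries each. Sgms2 differed by -1.10 (adjusted p 0.137), with both differentiated libraries below both fresh ones, and Ift80, Atg12 and Bahcc1 differed by -0.40, 0.42 and 0.39, none past the threshold. Aff2 passed the low-count filter through the MOZ-TIF2 libraries, with 0 and 11 counts in differentiated and 9 and 4 in fresh cells, and did not pass in a fit of these 2 groups alone. Its fitted difference ran from -6.43 to -0.17 over the alternatives and is not read. Without 1 of the 4 libraries the Iqcg call was lost in each case (adjusted p 0.0633 to 0.111), and the Nkx2-3 call was lost without fresh replicate 1 (adjusted p 0.0897), while Sgms2 came past the threshold without differentiated replicate 2 (adjusted p 0.0462). In simulated counts for this comparison, with 200 of 14959 genes changed, the test recovered 27% of 4-fold and 0% of 2-fold changes. In the real data 6198 of 15224 genes were called, and the adjustment is less strict when more genes change. Near 2-fold, the neighbours Smc4 (-1.07, adjusted p 0.0170 by edgeR) and Ap3s1 (-1.28, adjusted p 0.00812) were called, while Sgms2 and Trim59 (-0.97, adjusted p 0.118) were not. The simulated shares therefore do not give the recovery in the real data.

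In the HOXA9 and EYA1 plus HOXA9 cells, Nkx2-3 had 0 counts in all 12 libraries, which allows at most 0.0322 to 0.0382 CPM in a group (3 counts over its libraries). Bahcc1 had 0 to 9 counts per library and a mean of 0.200 CPM (SD 0.109, n = 3) in HOXA9 cells with DMSO. Neither gene passed the low-count filter, so 5 of the 7 were tested. These 2 genes carry the widest Ty1 peaks of the set.

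With DMSO, Atg12 and Iqcg were lower in EYA1 plus HOXA9 cells than in HOXA9 cells, 2 of 5 genes, where 10.8% of 13375 genes were lower. Atg12 read 230, 207 and 210 CPM with EYA1 and 287, 393 and 373 without. Its log2 difference was -0.70 (SE 0.15, adjusted p 0.00475 by edgeR), and it passed under all 12 alternatives. Iqcg read 6.49, 5.03 and 6.36 CPM against 7.12, 20.6 and 27.6. The groups did not overlap, but HOXA9 replicate 1 lay close to the EYA1 libraries. The Iqcg log2 difference was -1.63 (SE 0.44, adjusted p 0.0198 by edgeR), and the call was lost without EYA1 plus HOXA9 replicate 2 or 3 or without HOXA9 replicate 2 or 3 (adjusted p up to 0.0730). Ift80, Sgms2 and Aff2 differed by -0.33, -0.20 and 0.03, with overlapping groups.

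With benzarone, 4 of the 5 genes were lower in EYA1 plus HOXA9 cells, where 10.1% of all genes were lower. Iqcg read 1.80, 2.67 and 2.15 CPM against 8.37, 16.0 and 24.0, a log2 difference of -2.87 (SE 0.47, adjusted p 0.000845 by edgeR). Sgms2 read 241, 223 and 168 CPM against 335, 397 and 485, a difference of -0.95 (SE 0.19, adjusted p 0.00305). Ift80 read 15.0, 19.1 and 15.0 CPM against 22.7, 30.7 and 32.1, a difference of -0.80 (SE 0.20, adjusted p 0.0103). Atg12 read 181, 240 and 207 CPM against 288, 356 and 347, a difference of -0.66 (SE 0.15, adjusted p 0.00582). All 4 genes had EYA1 plus HOXA9 libraries below every HOXA9 library. Aff2 differed by -0.45 (adjusted p 0.154) and its groups overlapped, 20.8 to 27.1 against 22.9 to 38.1 CPM. The Ift80 call was lost without EYA1 plus HOXA9 benzarone replicate 1 (adjusted p 0.0539), and Aff2 passed without HOXA9 benzarone replicate 1 (adjusted p 0.0409).

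Summed granulocyte progenitor markers moved with these comparisons: 8294 to 8586 CPM in EYA1 plus HOXA9 against 14300 to 16610 in HOXA9 cells with DMSO, and 5632 to 7860 against 12940 to 14770 with benzarone. Late neutrophil markers were 157 to 227 against 637 to 2387 CPM with DMSO and 39.4 to 147 against 714 to 2875 with benzarone. Monocyte markers were 749 to 1680 CPM in EYA1 plus HOXA9 cells with benzarone and 212 to 413 over the 2 HOXA9 groups. Their part in the differences of the 5 genes was not tested.

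Benzarone against DMSO within EYA1 plus HOXA9 cells gave 2 calls among the 5 genes, both lower, where 12.4% of all genes were lower. Iqcg differed by -1.43 (SE 0.46, adjusted p 0.0357 by edgeR) and Sgms2 by -0.54 (SE 0.19, adjusted p 0.0492). All 3 benzarone libraries lay below all 3 DMSO libraries for both genes, but neither call survived the loss of any of the 6 libraries (adjusted p 0.0528 to 0.120 for Iqcg and 0.0540 to 0.161 for Sgms2). Ift80 differed by -0.52 (adjusted p 0.0658), Aff2 by -0.49 (adjusted p 0.116) and Atg12 by -0.04 (adjusted p 0.862). Both Ift80 and Aff2 passed without EYA1 plus HOXA9 DMSO replicate 1 (adjusted p 0.0196 and 0.0298), the DMSO library with the lowest level of both. Summed monocyte markers were 749 to 1680 CPM with benzarone against 259 to 350 with DMSO in these cells. Granulocyte progenitor markers were 5632 to 7860 against 8294 to 8586 and late neutrophil markers 39.4 to 147 against 157 to 227. Gene by gene, 5 of 6 monocyte markers tested were higher and 1 lower, and 1 of 7 granulocyte progenitor markers was higher and 4 lower. Of 6 late neutrophil markers 0 were higher and 0 lower, with a median log2 difference of -0.08, so their lower sum does not hold for the list as a whole. The part of these markers in the differences of Iqcg and Sgms2 was not tested.

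In HOXA9 cells benzarone gave no call among the 5 genes or among all 13375 (0%), with edgeR. At an unadjusted p under 0.05 there were 0 of 5 and 232 of 13375. DESeq2 called 14 genes, and blocking on the replicate number, which pairs these 2 groups, called 6, none of them among the 5. The log2 differences were -0.19 (SE 0.43) for Iqcg, 0.21 (SE 0.19) for Sgms2, -0.09 (SE 0.15) for Atg12, -0.05 (SE 0.19) for Ift80 and -0.01 (SE 0.22) for Aff2. In simulated counts for this comparison, with 200 of 13275 genes changed, the test recovered 97% of 4-fold and 75% of 2-fold changes. These shares hold for that number of changed genes, since the adjustment is stricter when fewer genes change. The changed genes were drawn from those with a mean above 2 CPM. The shares average over genes of unequal spread and are not those of any 1 gene. Of the 5 genes, Iqcg had the largest SE. The test of whether the benzarone response differed between the lines called 0 of the 5 genes and 7.54% of all genes, with edgeR. DESeq2 called none of the 5, and 1 had an unadjusted p under 0.05, Sgms2, whose interaction was -0.75 (SE 0.27, adjusted p 0.107). A difference in the response of these genes between the lines was therefore not shown.

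**Figure D3:**
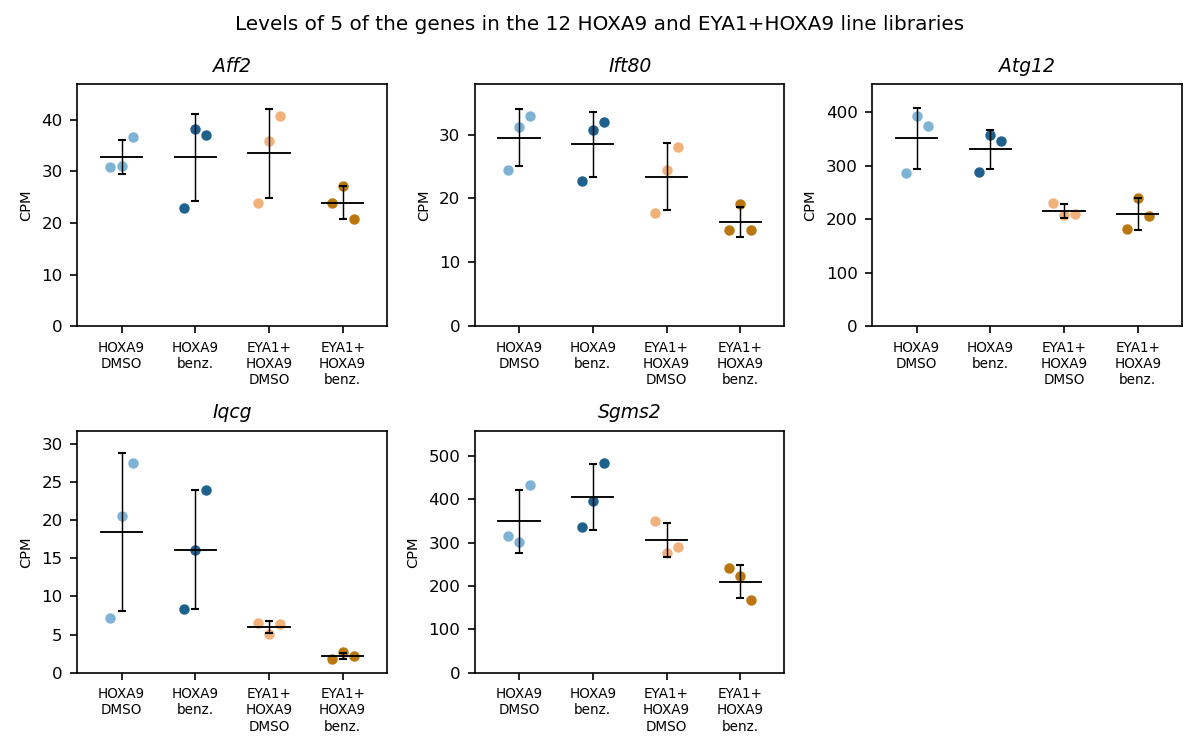
Level of the 5 tested genes (CPM) in the 12 libraries of HOXA9 and EYA1 plus HOXA9 cells with DMSO or 5 µM benzarone (benz.), 1 point per library, with each group's mean and SD as lines. Iqcg lies between 1.80 and 2.67 CPM in EYA1 plus HOXA9 cells with benzarone and between 7.12 and 27.6 in HOXA9 cells, while the Aff2 groups overlap.

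The genes that neighbour the 7 gave different values in these lines. In the DMSO comparison Ap3s1 differed by -0.03 (adjusted p 0.865), while Atg12, which its gene overlaps, differed by -0.70, and Slc25a28 was higher by 0.55 (adjusted p 0.0208 by edgeR). In the benzarone comparison Smc4 was lower by -0.37 (adjusted p 0.0238 by edgeR), where Ift80 differed by -0.80, and Lmln differed by -0.95 (adjusted p 0.0373). Within EYA1 plus HOXA9 cells Ap3s1 (-0.36, adjusted p 0.0370 by edgeR), Cdo1 (-1.11, adjusted p 0.0170), Lmln next to Iqcg (-0.95, adjusted p 0.0330) and Slc25a28 near Nkx2-3 (-0.51, adjusted p 0.0236) were lower with benzarone, and Cyp2u1 near Sgms2 was higher (1.28, adjusted p 0.0135). Smc4 (-0.16), Trim59 (-0.30), Lrch3 (0.09), Rpl35a (0.23), Hadh (0.12) and the pseudogenes Gm8172 and Gm18588 were not called there. Over all genes 12.4% were lower and 17% higher. No other tested neighbour was called in these comparisons.

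Partner genes of each pathway were counted without the 7, and some lists went the way of their gene while others did not. Of 16 other intraflagellar transport B genes tested, 3 were higher and 2 lower in EYA1 plus HOXA9 cells with DMSO. Over all genes 12.1% were higher and 10.8% lower, and the list's median log2 difference was -0.02. Ift81, which binds tubulin cargo with IFT74, was higher by 4.64 (adjusted p 1.877e-05) and Ttc30a1 by 3.33 (adjusted p 2.459e-05), while Ift80 itself differed by -0.33. Ift81 was low in all groups, with a mean of 3.60 CPM in EYA1 plus HOXA9 cells and 0.142 in HOXA9 cells. Among the 4 nexin-dynein genes tested besides Iqcg, Ccdc65 was higher by 3.14 (adjusted p 0.00220 by edgeR), opposite to Iqcg. Of 15 genes of the ATG12 and ATG8 conjugation systems, 0 were higher and 2 lower (median -0.16), and Atg12 was lower too. Of 23 sphingomyelin and ceramide genes 1 was higher and 7 lower (median -0.27), and Sgms2 differed by -0.20. AFF and elongation genes gave 1 higher and 1 lower of 11, and BAH and polycomb genes 2 and 0 of 17.

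With benzarone in EYA1 plus HOXA9 cells, 17% of all genes rose and 12.4% fell. Of the 15 other genes of the ATG12 and ATG8 conjugation systems of autophagy, 4 rose and 1 fell. The ATG8 genes Gabarapl1 (0.85, adjusted p 0.000366), Gabarap (0.74, adjusted p 0.00147) and Map1lc3b (0.64, adjusted p 0.00165) were among those that rose, and the list's median was 0.31 against 0.01 over all genes. Of 23 genes of sphingomyelin and ceramide metabolism, 8 rose and 1 fell, with a median of 0.23. The ceramidase gene Asah2 rose by 2.78 (adjusted p 0.000188). Sgms1, the other sphingomyelin synthase that resides in the Golgi, rose by 0.80 (adjusted p 0.0263) where Sgms2 fell by 0.54. Sgms1 was singled out after its value was seen. Of 17 BAH and polycomb chromatin genes 2 rose and 4 fell, and of 11 other AFF and elongation genes 1 rose and 2 fell. No NKX2 family gene besides Nkx2-3 passed the filter in either table. In HOXA9 cells none of these lists held a call.

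Between differentiated and fresh cells, where 21% of all genes rose and 19.7% fell, 14 of 24 sphingomyelin and ceramide genes rose and 3 fell. The other lists gave 5 higher and 2 lower of 12 for AFF and elongation genes, 6 and 0 of 15 for the ATG conjugation systems, 5 and 3 of 17 for BAH and polycomb genes, 1 and 1 of 17 for intraflagellar transport B, and 0 and 2 of 4 for nexin-dynein genes, whose median was -3.33. Aff4, the scaffold of the super elongation complex, rose by 3.65 (adjusted p 0.000862) and Aff3 fell by 4.26 (adjusted p 0.0469). The sphingosine kinase gene Sphk1 fell by 6.44 (adjusted p 0.00144). The mast cell markers given above separate these 2 groups too, and their part in these counts was not tested.

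In single MOZ-TIF2 cells, 4 of the 6 genes with enough UMIs were at least 1.5 times lower after 5 days of benzarone than after 5 days of DMSO, where 28.2% of 10261 genes with at least 100 UMIs were. There was 1 sample per condition, so these ratios have no replicate check, and their intervals cover counting error only (exact binomial, 95%). The conditions held 883 and 826 cells at day 1 (DMSO and benzarone), 829 at day 3 and 1662 and 1496 at day 5, with median UMI counts per cell of 42560, 44760, 44740, 24580 and 19760. Of the cell barcodes, 9 occurred in both tables.

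Bahcc1 had the lowest ratio. It read 22.1 CPM with DMSO and 5.66 with benzarone at day 5, a benzarone to DMSO ratio of 0.256 (0.217 to 0.300), from 918 and 183 UMIs, and 1.82% of genes had a smaller ratio. Iqcg read 5.57 and 1.82 CPM (ratio 0.328, 0.242 to 0.438), Ift80 15.7 and 6.89 CPM (0.439, 0.376 to 0.512) and Atg12 129 and 58.7 CPM (0.457, 0.433 to 0.482). Nkx2-3 read 45.2 and 31.0 CPM, a ratio of 0.685 (0.634 to 0.740) that stayed just short of 1.5-fold. Sgms2 went the other way, 25.2 and 33.9 CPM (1.35, 1.24 to 1.47).

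Aff2 gave 13 UMIs in DMSO and 20 in benzarone cells at day 5, 0.313 and 0.618 CPM, with a ratio of 1.97 whose interval of 0.934 to 4.32 includes 1. It is not listed in the day 1 and 3 table. The 3′-end single-cell assay recorded few Aff2 molecules in serially replated Ty1.MOZ-TIF2 cells, while the bulk libraries of GFP+ cells after 4 days in medium read 25.6 and 60.5 CPM. The assays and cultures differ, and the difference was not tested.

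After 1 day of benzarone the 6 listed genes had ratios to DMSO between 0.849 (Ift80) and 1.27 (Iqcg), and none reached 1.5-fold, as 0.901% of 9430 genes did downward and 0.838% upward. Between day 3 and day 1 in benzarone the ratios ran from 0.864 (Iqcg) to 1.20 (Sgms2), again none past 1.5-fold (0.783% of genes lower and 4.99% higher). Nkx2-3 read 43.1 CPM in DMSO and 47.3 in benzarone cells at day 1 and 47.0 at day 3, and Bahcc1 31.5, 28.1 and 27.8. Sgms2 read 33.4, 40.6 and 48.9 CPM in the same order. Day 3 has no DMSO sample, and days 1 and 3 lie in another table than day 5, so no ratio was formed across them.

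The share of cells with a UMI followed the levels of Bahcc1 and Nkx2-3. At day 5 Bahcc1 UMIs were found in 33.3% of DMSO cells and 8.82% of benzarone cells, and Nkx2-3 UMIs in 48.3% and 23.9%. With every cell thinned to 6000 UMIs these shares became 11.5% and 2.41% for Bahcc1 and 20.6% and 12.6% for Nkx2-3, and the Nkx2-3 ratio of shares was 0.614. For Sgms2 the unthinned shares were 38.0% and 37.6% and the thinned ones 12.5% and 17.0%. All cells are of 1 line, so the share that free RNA gives in cells without these genes could not be measured.

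Marker genes differed along with these ratios. At day 5 summed granulocyte progenitor markers were 10680 CPM with DMSO and 1666 with benzarone, monocyte markers 104 and 717, and late neutrophil markers 10030 and 19890. At day 1 the granulocyte progenitor markers were 10180 and 11240 CPM. Their part in the day 5 ratios was not tested. Of the pathway partners at day 5, 8 of 15 ATG conjugation genes were at least 1.5 times higher and 0 lower, 11 of 21 sphingomyelin and ceramide genes higher and 4 lower, 3 of 16 BAH and polycomb genes higher and 7 lower, 4 of 10 AFF and elongation genes higher and 1 lower, and 0 of 12 intraflagellar transport B genes higher and 1 lower, where 23.7% of all genes were higher and 28.2% lower. Among neighbours, the lncRNA Gm11772 that overlaps Bahcc1 had a ratio of 0.197 (0.124 to 0.301), Ap3s1 one of 0.555 and Smc4 one of 0.756. Gm20467, under the Nkx2-3 peak, had a ratio of 0.359, and Trim59 near Ift80 one of 0.378. The ratios of Cdo1, Rpl35a, Hadh and Slc25a28 were 0.519, 0.612, 0.673 and 0.782. Lmln had 0.891, with an interval that includes 1. Lrch3, which overlaps Iqcg, was higher (1.425, 1.139 to 1.785).

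**Figure D4:**
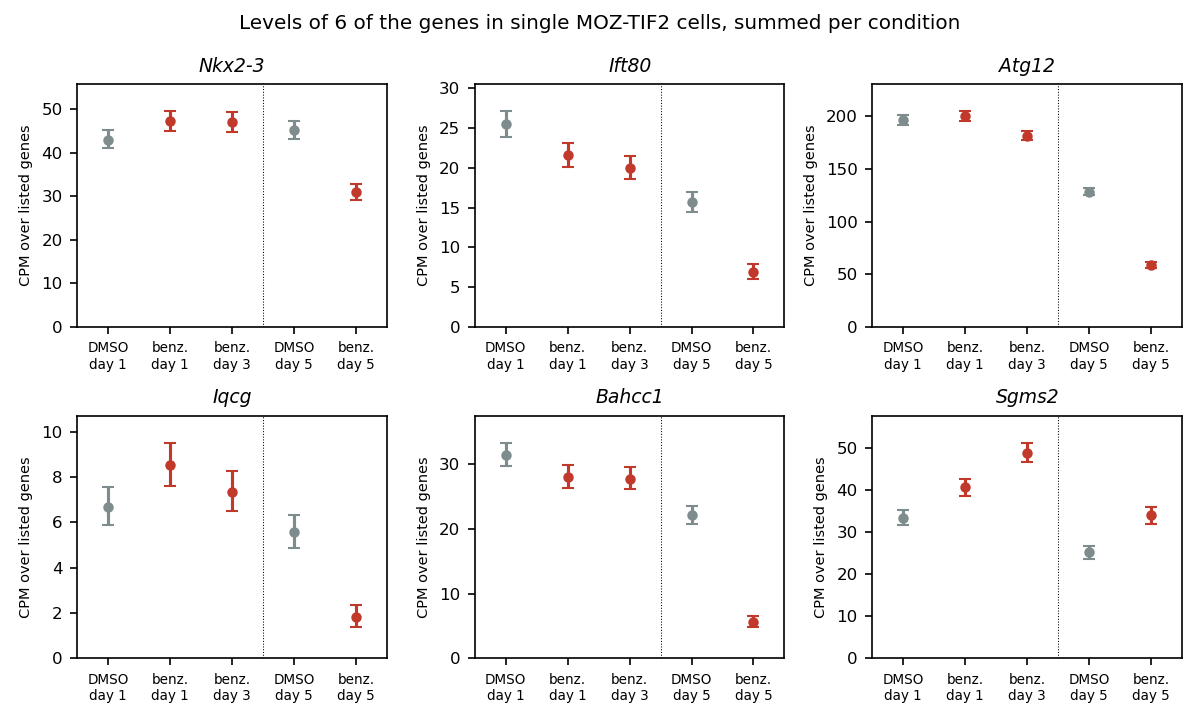
Level of 6 of the genes (CPM of summed UMIs, with exact Poisson 95% intervals) in single MOZ-TIF2 cells by treatment and day, 1 sample per condition; the dotted line separates the 2 tables. At day 5 the benzarone value of Bahcc1 is 5.66 against 22.1 CPM with DMSO, while that of Sgms2 is 33.9 against 25.2.

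With benzarone, Iqcg was lower in EYA1 plus HOXA9 cells (log2 difference -1.43) and in day 5 MOZ-TIF2 cells (ratio 0.328), and Sgms2 was lower in the former (-0.54) and higher in the latter (ratio 1.35). These values come from separate assays with 72 h and 5 days of treatment, and their difference was not tested.

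Across the 12 line libraries the 5 measurable genes varied together to different degrees, as a description. Pearson's r of log2(CPM + 1) was 0.914 for Atg12 with Iqcg, 0.901 for Ift80 with Iqcg and 0.430 for Aff2 with Atg12, the lowest pair. The genes most like each were Ptpru (0.976) for Ift80, Traf7 (0.965) for Atg12, P4ha1 and Npepps (both 0.978) for Iqcg, Tnfrsf21 (0.977) for Sgms2, and Lclat1 and Asap1 (both 0.946) for Aff2. These points share 4 groups, so group differences set much of each r. Across the 6 libraries with MOZ-TIF2, the gene most like Aff2 was Cdo1 (0.997), the neighbour of Atg12, and for Atg12 it was Dixdc1 (0.999), which was also the second most like Ift80 in the lines (0.954). Nkx2-3 was most like Snx5 (0.998), Ift80 like Ambp (0.999), Iqcg like Slc1a5 (0.998), Bahcc1 like Map1b (0.996) and Sgms2 like Erc1 (0.999). In those 6 libraries every r rests on the step between MOZ-TIF2 and the other cells that chose the genes.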

How the data were processed

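Values come from 6 bulk RNA-seq libraries of fresh, differentiated and MOZ-TIF2 cells, 12 of HOXA9 lines, 4 single-cell samples and 2 Ty1 ChIP-seq peak lists. The 7 genes, the gene lists and the marker lists were chosen with earlier results of these data known. The authors deposited estimated counts per gene, which the submitters' processing notes tie to Salmon 0.13.0, from strand-specific polyA libraries per the labels' protocols, and per-cell UMI counts (Cell Ranger 3.0.0, per the same notes). The deposited peak intervals are on GRCm38, with a 50 bp grid. The notes name Bowtie2; the peak caller is not given in the sources used here. Peak starts were converted to count from 1, and genes and starts came from RefSeq's GRCm38.p6 tables. Promoter sequences were matched for Aff2, Nkx2-3, Iqcg, Bahcc1 and Sgms2, 5 of 7 genes; Ift80 and Atg12 had no entry in the promoter table used here. Acetyl-histone ChIP and input samples were not analysed here.

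Estimated counts were rounded to whole numbers and tested with edgeR 4.0.16 (filterByExpr, TMM factors, quasi-likelihood F test, all groups of a table in 1 fit, Benjamini-Hochberg adjustment over all genes tested, threshold 0.05), in R 4.3.3. Standard errors of log2 differences were derived from the test statistic. The fit was tested on simulated data with 200 changed genes, drawn from genes with a mean above 2 CPM. The 15224 and 13375 genes tested include 7 and 5 of the 7 genes. DESeq2 1.42.0, other size factors, other low-count filters, the replicate block, fits of the groups compared alone and fits without each library were alternatives. Replicate numbers paired the HOXA9 benzarone and DMSO groups, by the correlation of same-numbered deviations from group means (0.279, 0.300 and 0.550), a hint from the data and not from the labels. Genes with similar profiles and list genes were named by a fixed rule: all 7 genes, neighbours within 50 kb, up to 3 called genes of smallest p per list and contrast, and the 2 with the highest r. Sgms1, singled out after its value was seen, and Aff3 are not credited to this rule. Cells were taken as the deposited tables list them. No doublet caller was run here, and whether doublets were removed before deposit is not given in the sources used here. Single-cell UMIs were summed per condition over 9448 or 11662 listed genes, with exact Poisson and binomial intervals at 95%, which cover counting error only.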

Additional observations from a re-analysis of the deposited data

How the results depend on the processing

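Among the 7 genes, the number lying at least 4 times above the other libraries in MOZ-TIF2 cells was 7 under all scalings and 7 to 7 without any 1 library. This count is no check. The genes were chosen as high in MOZ-TIF2 cells. It compares the lowest MOZ-TIF2 library with the highest other one, so leaving out a library can lower it only through rescaling. The count of called genes without 1 library was 1 to 2 for EYA1 plus HOXA9 against HOXA9 with DMSO (2 with all libraries), 3 to 5 with benzarone (4), 0 to 2 for benzarone within EYA1 plus HOXA9 cells (2), 0 to 0 within HOXA9 cells and for the interaction, and 0 to 2 between differentiated and fresh cells (2). Within EYA1 plus HOXA9 cells DESeq2's size-factor method (RLE) left 1 call, as Sgms2 moved to an adjusted p of 0.0533; the cause was not tested. Values near 0 that never passed changed sign: Aff2 for benzarone in HOXA9 cells was 0.004 without a low-count filter. The day 1 Nkx2-3 ratio, which was not tested, was 0.951 from thinned shares instead of 1.10. The counting interval of the latter, 1.026 to 1.175, excludes 1 and does not cover this dependence on the measure. Leaving out 1 library gave -0.13 to 0.22 for Aff2 between the lines with DMSO, -0.150 to 0.036 for Atg12 with benzarone in EYA1 plus HOXA9 cells, and -0.063 to 0.172 for its interaction. In HOXA9 cells it gave -0.13 to 0.19 for Aff2, -0.170 to 0.081 for Ift80, -0.214 to 0.001 for Atg12 and -0.60 to 0.22 for Iqcg. With the replicate block, benzarone within EYA1 plus HOXA9 cells called 2 of the 5 genes: Iqcg (adjusted p 0.0138) and Ift80 (0.0182), while Sgms2 missed the threshold (0.0691); these groups share only a number. Between differentiated and fresh cells, which also share only a number, the block called 3 of the 7, with Sgms2 added (0.0356). Over all genes, benzarone in HOXA9 cells gave 0 calls with edgeR, 6 with the replicate block, 14 with DESeq2 and 1 from those groups alone, and the interaction 1009 with edgeR, 1715 with DESeq2 and 408 without EYA1 plus HOXA9 DMSO replicate 3. Leaving out 1 library lowered the calls over all genes to 1735 (from 3061) and 2211 (from 3382) between the lines with DMSO and benzarone, 2353 (from 3933) for benzarone in EYA1 plus HOXA9 cells, and 1259 (from 6198, without fresh replicate 1) between differentiated and fresh cells. Of the lists, benzarone in EYA1 plus HOXA9 cells gave 5 AFF and elongation genes with DESeq2 (3 with edgeR) and 2 intraflagellar transport B genes without a low-count filter (5 with it). Between differentiated and fresh cells it was 0 transport genes with the replicate block and 4 with DESeq2 (2 with edgeR), and 5 BAH and polycomb genes with the block or without the filter (8). Depth limits Nkx2-3 and Bahcc1 in the lines, and Aff2 in single cells.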
